A study of Mus musculus with 7 samples.

Results

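The genes described here encode the ATP-binding cassette (ABC) exporters of the hepatocyte, the pumps that move bile constituents and conjugates out of the liver cell. Members were taken by symbol, and all 10 were found among the 23347 genes of the liver count table: *Abcb11*, *Abcb4*, *Abcb1a*, *Abcc2*, *Abcg2*, *Abcg5* and *Abcg8* at the canalicular membrane, and *Abcc3*, *Abcc4* and *Abcc6* at the basolateral membrane. Liver RNA-seq was compared between 4 *B4galt1* flox/flox mice, labelled WT, and 3 *B4galt1* hep-/- mice, labelled B4-HKO. All 7 were C57BL/6 males, 6 to 8 weeks old at the start, kept for 15 weeks on CDAHFD, a high-fat feed that lacks choline and is used to produce steatohepatitis. Both groups carried the floxed *B4galt1* alleles, and the hep-/- mice additionally carried Alb-Cre, whose albumin promoter directs deletion to hepatocytes. Whether the other liver cells kept the gene was not tested here. *B4galt1* encodes a Golgi galactosyltransferase that adds galactose to N-glycans. Each library came from 1 mouse, and livers of chow-fed mice were not analysed here.

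Bile forms when hepatocytes pump solutes across the canalicular membrane and water follows. ABCB11 exports bile salts, ABCB4 flips phosphatidylcholine into the canaliculus, the ABCG5-ABCG8 heterodimer exports sterols, and ABCC2 exports bilirubin glucuronides and glutathione conjugates. ABCC3 and ABCC4 face the blood and are known as an overflow route for conjugates and bile salts when canalicular export is impaired.

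Library totals were 37838654 to 39668509 counts in the flox/flox group and 30608271 to 34586588 in the hep-/- group, so that 3 counts correspond to 0.0756 to 0.098 CPM (counts scaled to library size) of the raw totals. All CPM levels below were further normalised by TMM. Counts of 13 mitochondrially encoded genes took 3.88 to 8.0% of the flox/flox libraries and 14.4 to 22.6% of the hep-/- libraries. The targeted gene, *B4galt1*, measured 48.7, 53.0, 49.2 and 51.6 CPM in the flox/flox livers and 28.4, 23.9 and 53.7 CPM in the hep-/- livers. The third hep-/- library thus lay at the flox/flox level, and the groups were not separated for this gene (log2 fold change -0.52, SE 0.26, adjusted p = 0.181), so every direction below is between livers as labelled. Without that library the log2 fold change was -0.96 (adjusted p = 0.0139), and limma on the filtered FPKM values called the gene lower with all mice (-0.67 and -0.73, adjusted p = 0.0389 and 0.0382), while over all alternatives the adjusted p ranged from 0.0139 to 0.461. Hepatocyte markers dominated both groups, with summed levels of 87200 to 129000 CPM and 102000 to 158000 CPM, and 0 of 8 were called different by edgeR's quasi-likelihood test. Macrophage markers summed to 420 to 792 CPM in the flox/flox livers and 260 to 303 CPM in the hep-/- livers, with 3 of 6 lower and none at 0, and their part in the results below was not tested. Of the other marker lists, *Kdr* alone of the endothelial genes was lower, and no cholangiocyte, stellate, lymphocyte or neutrophil marker was called. In bulk liver, fewer cells of a type and less RNA per cell cannot be told apart.

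Of the exporters, 3 were lower in the livers labelled hep-/- and none was higher. *Abcc2* was 1.94-fold lower, *Abcg8* 1.67-fold lower and *Abcc3* 1.67-fold lower, a set that spans both membranes. *Abcb11*, *Abcg5* and *Abcc6* had higher means in the hep-/- group, with overlapping mice. The count was 3 of 10 lower and 0 of 10 higher (edgeR's quasi-likelihood test, Benjamini-Hochberg adjusted p under 0.05 and a change of more than 1.5-fold), against 7.83% lower, 8.0% higher and 15.8% in either direction of the 15179 genes tested. At an unadjusted p under 0.05, 4 members were lower and 0 higher, where 16.1% of all tested genes were lower. DESeq2 also called 3 lower and 0 higher, where it called 10.3% of all genes lower. The median log2 fold change was -0.50 over the members and 0.02 over all genes tested. In 5 members every hep-/- mouse was below every flox/flox mouse and in 0 members above, where 15.0% and 13.6% of all tested genes were separated in these directions. All 3 calls were kept without hep-/- replicate 3, the library with flox/flox-level *B4galt1*, and without flox/flox replicate 1 or 4. By contrast, 0 members were called without flox/flox replicate 2 or without hep-/- replicate 1 (3 and 4 members at an unadjusted p under 0.05), and 1 was called without flox/flox replicate 3 or without hep-/- replicate 2. The changes themselves stayed between -1.23 and -0.84 for *Abcc2*, -0.84 and -0.68 for *Abcg8* and -0.81 and -0.63 for *Abcc3* when any mouse was left out, and the calls over all genes fell from 2404 to 885 without flox/flox replicate 2.

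**Figure D1:**
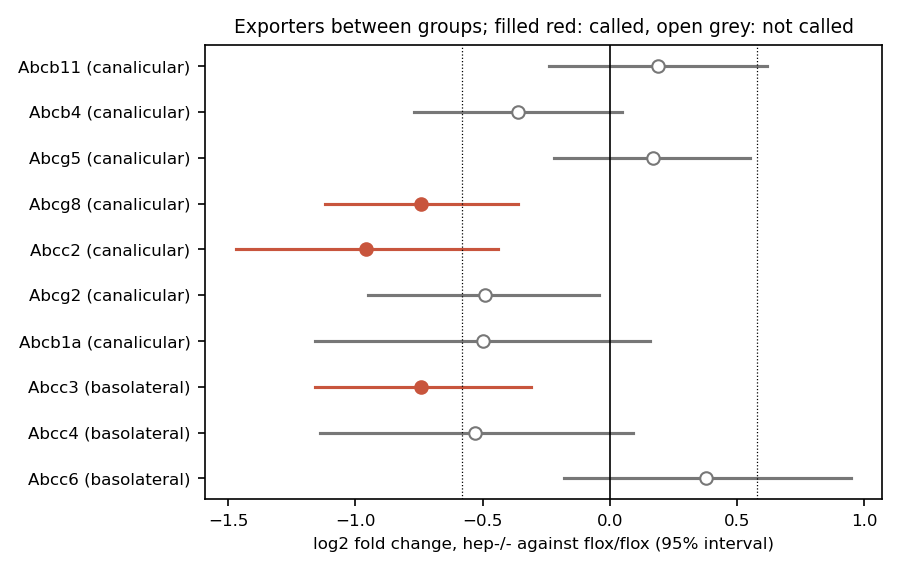
Log2 fold change of each exporter, hep-/- minus flox/flox, from edgeR's quasi-likelihood fit, with lines for the 95% confidence interval, filled red points where called and dotted lines at the fold threshold of 0.58 on the log2 scale. The 3 called members, *Abcc2*, *Abcg8* and *Abcc3*, lie at -0.96, -0.74 and -0.74, whereas *Abcb11*, *Abcg5* and *Abcc6* lie above 0 with intervals that include it.

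*Abcc2* (NCBI Gene 12780, chromosome 19) had the largest change among the members. The flox/flox livers gave 335, 319, 329 and 236 CPM and the hep-/- livers 127, 135 and 209 CPM. All hep-/- mice lay below all flox/flox mice, and the gap was narrowest between hep-/- replicate 3 and flox/flox replicate 4. The means were 305 ± 46.0 (SD, n = 4) and 157 ± 45.5 (SD, n = 3), giving a log2 fold change of -0.96 (SE 0.24, 95% interval -1.47 to -0.44, adjusted p = 0.0226). A two-sided exact permutation test on the same values gave p = 0.0571, where 4 mice against 3 allow no p below 0.0286. The adjusted p ranged from 0.00103 to 0.0667 over the alternatives and passed 0.05 without flox/flox replicate 2 (0.064) or 3 (0.0526) and without hep-/- replicate 1 (0.0667) or 2 (0.0575).

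*Abcb11* (NCBI Gene 27413, chromosome 2), the bile salt export pump of the same membrane, did not share this direction. Its level was 126, 152, 137 and 105 CPM in the flox/flox livers and 136, 138 and 171 CPM in the hep-/- livers. The groups overlapped, with the highest value in hep-/- replicate 3 and the lowest in flox/flox replicate 4. The log2 fold change was 0.19 (SE 0.20, 95% interval -0.24 to 0.62, adjusted p = 0.538), an interval that reaches from a small decrease to an increase past the 1.5-fold threshold.

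The 250 bases before the start sites of these canalicular genes are shown because nuclear receptors are known to regulate both genes, and because the pair differed in the liver data. The windows are from RefSeq on GRCm38.p6, at chr19:43782058-43782307 on the plus strand for *Abcc2* and chr2:69342617-69342866 on the minus strand for *Abcb11*. Capitals mark AGGTCA, searched on both strands, so that TGACCT is the same motif on the other strand.
Abcc2: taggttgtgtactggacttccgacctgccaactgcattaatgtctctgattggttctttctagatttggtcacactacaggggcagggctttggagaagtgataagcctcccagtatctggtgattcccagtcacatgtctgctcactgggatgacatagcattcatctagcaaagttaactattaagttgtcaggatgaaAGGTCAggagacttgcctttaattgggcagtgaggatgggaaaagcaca
Abcb11: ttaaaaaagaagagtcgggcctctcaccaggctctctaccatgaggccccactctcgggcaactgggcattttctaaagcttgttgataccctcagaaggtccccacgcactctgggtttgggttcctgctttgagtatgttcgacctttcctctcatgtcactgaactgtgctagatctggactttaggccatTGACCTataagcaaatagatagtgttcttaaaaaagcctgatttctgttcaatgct
Each window held 1 match, from -49 to -44 in *Abcc2* and from -56 to -51 in *Abcb11*, counted from the start site. AGGTCA occurred in 14.0% of all windows of this length, and a match describes letters only. Another motif searched, the antioxidant response element core TGACNNNGC, had 1 match in *Abcc2* and 0 in *Abcb11*. It occurred in 10.2% of all windows of this length.

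Within each mouse, *Abcc2* was therefore read against *Abcb11* on the length-corrected scale of FPKM (fragments per kilobase, scaled to library size). The ratio of *Abcc2* to *Abcb11* was 2.75, 2.18, 2.49 and 2.34 in the flox/flox livers and 0.974, 1.01 and 1.27 in the hep-/- livers. On this scale every flox/flox mouse had more *Abcc2* than *Abcb11* mRNA, whereas the levels were close to equal in hep-/- replicates 1 and 2. *Abcc2* was moderately higher in hep-/- replicate 3. The deposited FPKM imply lengths of 5645 bases for *Abcc2* and 5859 for *Abcb11*, against 8532 and 5146 exon bases in the GENCODE M21 annotation. Which gene is higher within a mouse thus depends on the length used, whereas the difference between groups does not. The mean ratio was 2.44 ± 0.246 (SD, n = 4) and 1.09 ± 0.161 (SD, n = 3). These genes were paired after their values were seen, so the ratio is given with no test.

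*Abcg5* (NCBI Gene 27409) and *Abcg8* (NCBI Gene 67470) encode the obligate partners of the canalicular sterol exporter and lie head to head on chromosome 17. The sequence between the *Abcg5* start and the nearer of 2 *Abcg8* starts is shown because it lies between the partners, which differed in the data. It spans 109 bases at chr17:84683012-84683120 of GRCm38.p6 (RefSeq), printed on the plus strand, along which *Abcg8* is transcribed. The other *Abcg8* start lies 6709 bases below the *Abcg5* start, outside this stretch. Which start the reads came from was not tested. Capitals mark the GATA-type motif AGATAA, here as TTATCT on the other strand.
Abcg5-Abcg8: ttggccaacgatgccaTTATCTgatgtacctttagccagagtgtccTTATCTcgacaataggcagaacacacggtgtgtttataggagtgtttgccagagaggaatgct
The stretch held 2 matches, from -93 to -88 and from -63 to -58 of the nearer *Abcg8* start. At least 2 matches were found in 0.186% of all promoter windows of this length and at least 1 in 3.98%. The motif was printed out of several searched, for a pair picked after its values were seen, so these shares are no test. A match describes letters only.

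*Abcg8* measured 68.8, 63.5, 64.2 and 56.3 CPM in the flox/flox livers and 34.2, 37.0 and 42.5 CPM in the hep-/- livers. The groups were well apart, with the highest hep-/- mouse below the lowest flox/flox mouse. The means of 63.2 ± 5.16 (SD, n = 4) and 37.9 ± 4.23 (SD, n = 3) gave a log2 fold change of -0.74 (SE 0.17, 95% interval -1.12 to -0.36, adjusted p = 0.0183). The exact permutation test gave p = 0.0286, two-sided, the smallest p this design allows. The adjusted p ranged from 0.00127 to 0.0605 over the alternatives without a replicate block, and the call was lost without flox/flox replicate 2 (0.0605) or hep-/- replicate 1 (0.0539).

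*Abcg5* measured 76.3, 66.5, 64.7 and 74.6 CPM in the flox/flox livers and 68.9, 80.5 and 87.9 CPM in the hep-/- livers. The groups overlapped and the hep-/- mean was the higher, with a log2 fold change of 0.17 (SE 0.17, 95% interval -0.22 to 0.55, adjusted p = 0.543). The FPKM ratio of *Abcg8* to *Abcg5* was 0.58, 0.614, 0.638 and 0.486 in the flox/flox livers and 0.319, 0.296 and 0.311 in the hep-/- livers. All hep-/- ratios were thus below all flox/flox ratios, with means of 0.309 ± 0.0118 (SD, n = 3) and 0.579 ± 0.0669 (SD, n = 4), given with no test since the ratio was chosen after the values were seen. In the GENCODE M21 annotation the genes share 82 exon bases on opposite strands, 3.02% of the *Abcg5* and 2.19% of the *Abcg8* exon length, and whether counting used strand was not given in the sources used here. Opposite-strand genes also overlap 3.01% of the *Abcb11* and 10.1% of the *Abcb1a* exon length, and 0% for the other members.

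**Figure D2:**
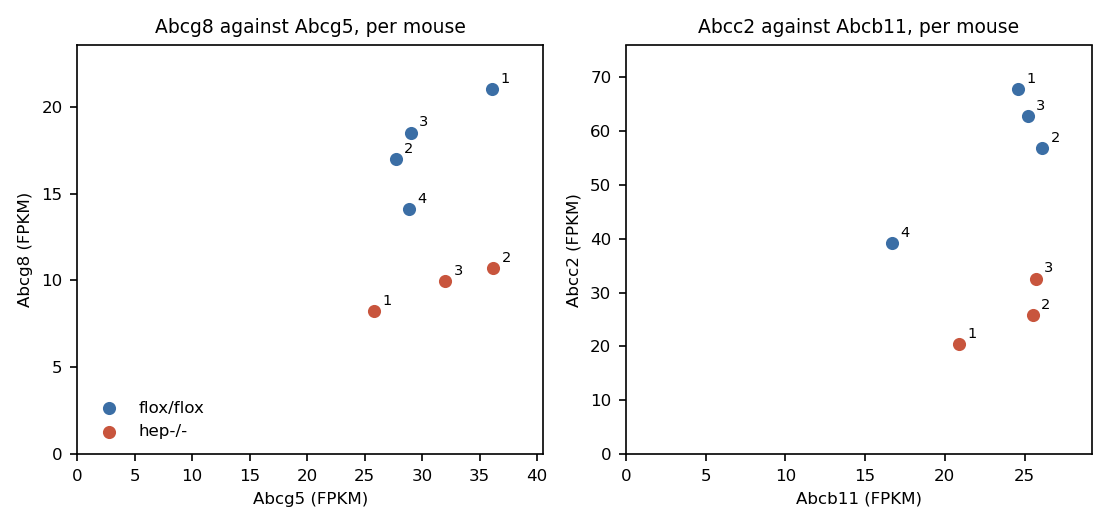
FPKM of *Abcg8* against *Abcg5* (left) and of *Abcc2* against *Abcb11* (right), with 1 point for each of the 4 flox/flox and 3 hep-/- mice and both axes starting at 0. At similar *Abcg5* levels the hep-/- points lie lower on the *Abcg8* axis, with ratios of 0.296 to 0.319 against 0.486 to 0.638, and the same holds for *Abcc2* at given *Abcb11*.

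*Abcb4* (NCBI Gene 18670, chromosome 5), the phospholipid floppase that protects the canaliculus from bile salts, was the most abundant member. It measured 489, 536, 438 and 481 CPM in the flox/flox livers and 384, 383 and 368 CPM in the hep-/- livers. The hep-/- mice were all lower and close together, yet the difference did not pass the test (log2 fold change -0.36, SE 0.19, 95% interval -0.77 to 0.05, adjusted p = 0.2), and over the alternatives the adjusted p ranged from 0.0413 to 0.492 with no change reaching 1.5-fold. The exact permutation test gave p = 0.0571, two-sided.

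*Abcg2* (NCBI Gene 26357, chromosome 6), an exporter of urate, porphyrins and sulphated conjugates, measured 62.5, 88.7, 85.0 and 86.3 CPM in the flox/flox livers and 66.8, 44.1 and 60.9 CPM in the hep-/- livers. Flox/flox replicate 1 fell among the hep-/- mice, and the other 3 flox/flox mice lay above them. The log2 fold change was -0.49 (SE 0.21, 95% interval -0.95 to -0.04) with an unadjusted p of 0.0367 and an adjusted p of 0.124. On the FPKM values tested with limma the gene passed the call, with log2 fold changes of -0.59 to -0.62 and adjusted p of 0.0202 to 0.0373, on a scale where the median of all genes also shifted down (the adjusted p ranged from 0.0202 to 0.349 over all alternatives).

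*Abcb1a* (NCBI Gene 18671, chromosome 5), a P-glycoprotein that exports hydrophobic drugs, was low in liver. It measured 10, 13.5, 20 and 7.80 CPM in the flox/flox livers and 10.5, 7.84 and 8.85 CPM in the hep-/- livers, which overlapped (log2 fold change -0.50, SE 0.30, adjusted p = 0.272). Its near-identical neighbour *Abcb1b* averaged 1.80 and 2.67 CPM, with a log2 fold change of 0.56 (adjusted p = 0.321). Reads shared between these copies, and with *Abcb4*, may be divided differently by the counting, so the *Abcb1a* value is less certain than the others.

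**Figure D3:**
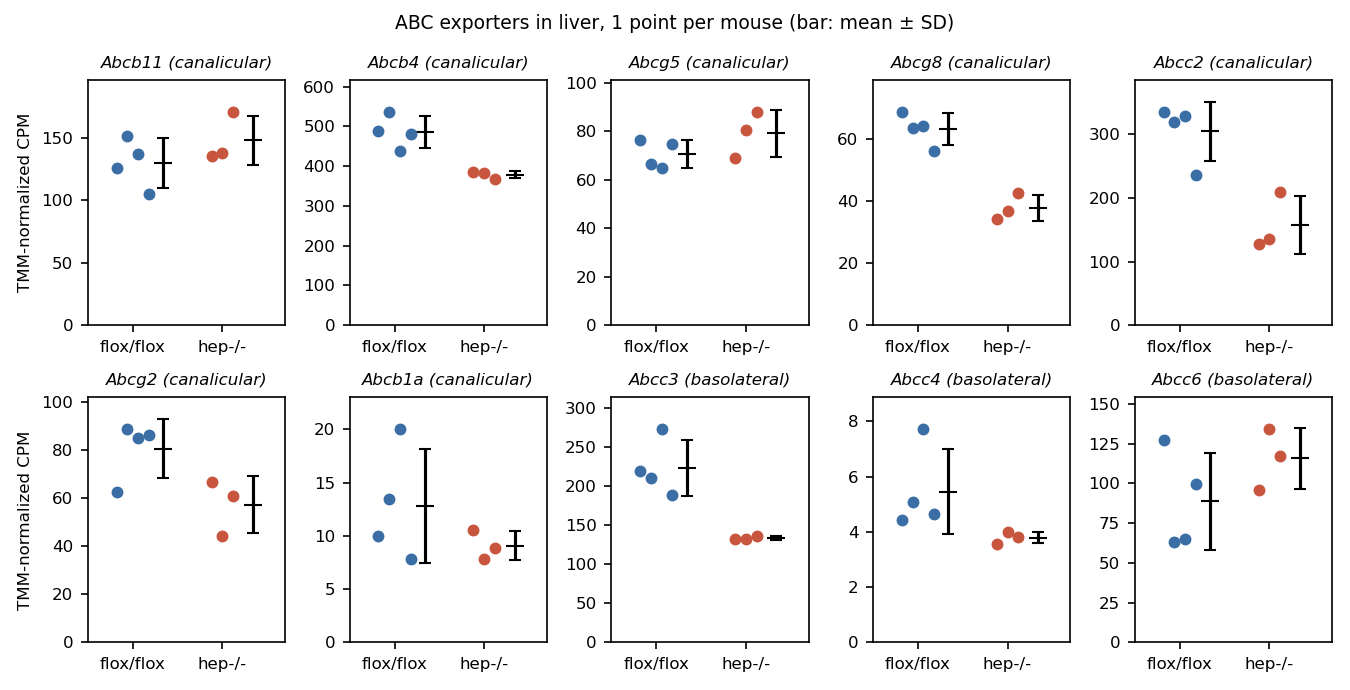
TMM-normalised CPM (linear axes from 0) of the 10 exporters in each of the 4 flox/flox and 3 hep-/- livers, with 1 point per mouse and a bar for the group mean ± SD. The hep-/- points lie below all flox/flox points for *Abcb4*, *Abcc2*, *Abcg8*, *Abcc3* and *Abcc4*, and the groups overlap for the other 5 members.

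Among the basolateral exporters, *Abcc3* (NCBI Gene 76408, chromosome 11), which returns glucuronides to the blood, fell together with *Abcc2*. It measured 219, 211, 273 and 189 CPM in the flox/flox livers and 133, 132 and 136 CPM in the hep-/- livers. The hep-/- values lay close together and below every flox/flox mouse. The means were 223 ± 36.0 (SD, n = 4) and 134 ± 1.72 (SD, n = 3), with a log2 fold change of -0.74 (SE 0.19, 95% interval -1.16 to -0.31, adjusted p = 0.0274) and an exact two-sided permutation p of 0.0286. The adjusted p ranged from 0.00207 to 0.0703 over the alternatives without a replicate block, and the call was lost without flox/flox replicate 2 (0.0703) or 3 (0.0671) and without hep-/- replicate 1 (0.0625) or 2 (0.0554). The FPKM ratio of *Abcc3* to *Abcc2* was 0.828 ± 0.103 (SD, n = 4) and 1.0 ± 0.242 (SD, n = 3), and its values overlapped between the groups.

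**Figure D4:**
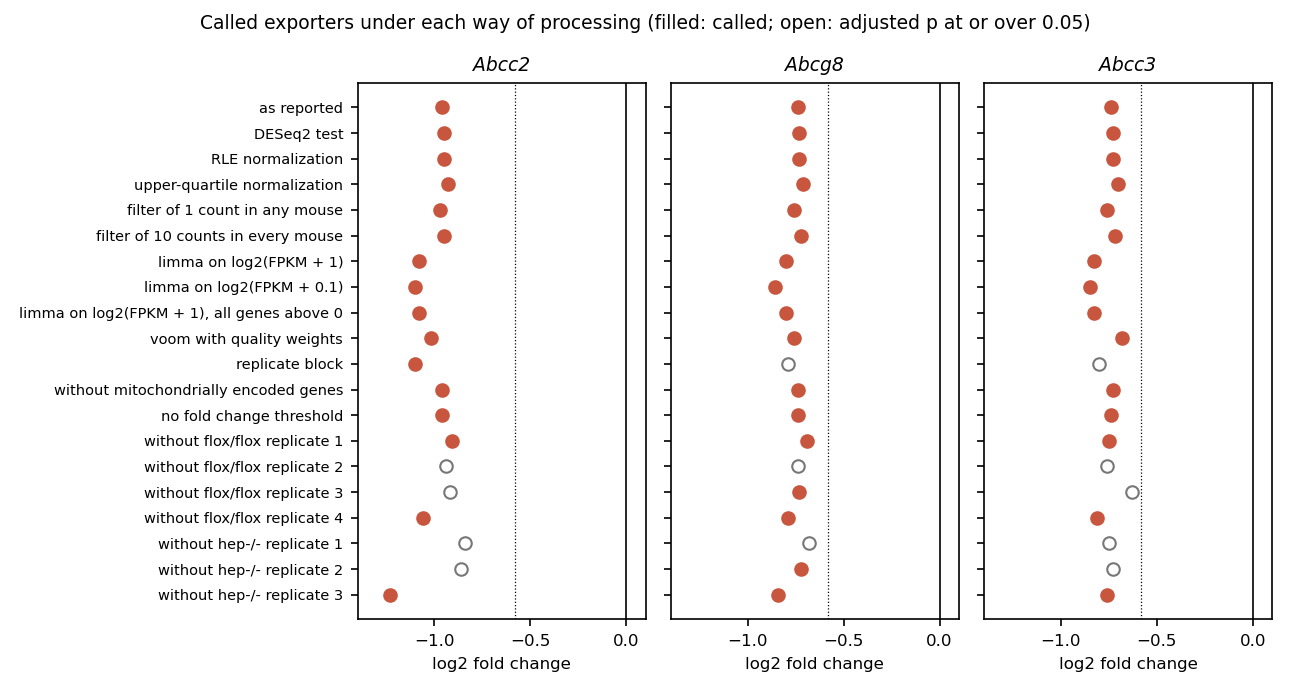
Log2 fold change of *Abcc2*, *Abcg8* and *Abcc3*, hep-/- minus flox/flox, as reported and under each alternative (rows), filled where the gene was called and open where its adjusted p was 0.05 or more, with a dotted line at -0.58. All points lie below the dotted line, and the open points are those without single mice, most often flox/flox replicate 2 or hep-/- replicate 1, and with a replicate block.

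*Abcc4* (NCBI Gene 239273, chromosome 14), which exports bile salts with glutathione and cyclic nucleotides, was the least abundant member. It measured 4.41, 5.07, 7.71 and 4.63 CPM in the flox/flox livers and 3.57, 3.98 and 3.82 CPM in the hep-/- livers. The hep-/- mice were again all lower, but the difference did not pass the test (log2 fold change -0.53, SE 0.28, 95% interval -1.14 to 0.09, adjusted p = 0.218). *Abcc6* (NCBI Gene 27421, chromosome 7), needed for hepatic ATP release and protection from ectopic calcification, measured 127, 63.3, 64.9 and 99.4 CPM in the flox/flox livers and 96.1, 134 and 117 CPM in the hep-/- livers. Its groups overlapped, and the flox/flox mice alone spanned most of the range (log2 fold change 0.38, SE 0.26, 95% interval -0.18 to 0.95, adjusted p = 0.327).

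Summed over the 10 members, exporter mRNA was 1340 to 1520 CPM in the flox/flox livers and 1060 to 1210 CPM in the hep-/- livers. The order and shares below depend on the lengths implied by the deposited FPKM. These were 4182 bases for *Abcb4* and 3699 for *Abcg2*, against 9383 and 8153 exon bases in GENCODE M21. By FPKM the flox/flox order was *Abcb4*, *Abcc2*, *Abcc3*, *Abcg5*, *Abcb11*, *Abcg2*, *Abcg8*, *Abcc6*, *Abcb1a* and *Abcc4*. The neighbours *Abcb11* and *Abcg2*, and *Abcg2* and *Abcg8*, kept this order in 3 of 4 mice, *Abcg8* and *Abcc6* in 2 of 4, and the remaining neighbours in all 4. In the hep-/- livers *Abcg5* moved to the second place behind *Abcb4*, and *Abcc2*, *Abcc3*, *Abcb11* and *Abcc6* followed with neighbours that changed places between mice. *Abcb4* took 35.9% of the summed member FPKM in the flox/flox and 36.0% in the hep-/- livers. The share of *Abcc2* was 16.6% and 10.9%, that of *Abcg5* 9.05% and 13.0%, and that of *Abcb11* 6.83% and 10%. Single mice recurred at the extremes: flox/flox replicate 4 was the lowest of its group for 5 members, hep-/- replicate 1 for 6, and hep-/- replicate 3, the library with flox/flox-level *B4galt1*, was the highest of its group for 5.

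Among sinusoidal uptake carriers, which bring solutes from the blood into the hepatocyte, 4 of the 7 tested were lower and 0 were higher. The shares over all genes tested were 7.83% lower and 8.0% higher. The median log2 fold change of the carriers was -0.97. *Slco1b2*, a carrier of bilirubin and drugs, changed by -1.28 (adjusted p = 0.0133), and this call held when any mouse was left out. *Slc10a1*, the sodium-dependent bile salt carrier NTCP, changed by -0.97 (adjusted p = 0.0422), but this call was lost in 6 of 7 leave-one-out fits, with the exception of hep-/- replicate 3 (adjusted p up to 0.106). *Slco1a1* changed by -3.54 (adjusted p = 0.0302) at means of 5.33 and 0.459 CPM and with overlapping groups, and it was not called without flox/flox replicate 3 or 4 or without hep-/- replicate 1 or 2 (adjusted p up to 0.0782), nor with voom (0.18) or limma on unfiltered FPKM values (0.119). Its log2 fold change ranged from -5.78 to -1.04 over the alternatives.

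Of the other export carriers, 1 of 11 was lower and 1 higher, close to the shares over all genes, with a median of 0.15. *Atp7b*, the copper exporter, changed by -0.69 (adjusted p = 0.0325), a call that was lost in 6 of 7 leave-one-out fits, with the exception of flox/flox replicate 3 (adjusted p up to 0.104, log2 fold changes of -0.78 to -0.61). *Slc47a1*, the canalicular cation antiporter MATE1, changed by 0.94 (adjusted p = 0.0227) and lost its call without flox/flox replicate 2 (0.0811) and with limma on unfiltered FPKM values (0.0932). The basolateral bile salt exporter subunit *Slc51b* averaged 1.22 and 2.72 CPM, with every hep-/- mouse above the flox/flox mice and an adjusted p of 0.0674, which ranged from 0.0226 to 0.156 over the alternatives and passed the call with DESeq2 (0.0241) and with limma on the filtered FPKM values (0.0226 and 0.0233). *Atp8b1*, the canalicular aminophospholipid flippase, differed by -0.15 (adjusted p = 0.643), and *Abca1*, which loads cholesterol onto apolipoprotein A-I, by -0.46 (adjusted p = 0.116). For *Abca1* every hep-/- mouse was below the flox/flox mice. Its adjusted p ranged from 0.0302 to 0.381 over the alternatives, and only limma on log2(FPKM + 0.1) called it. Of 31 other ABC genes tested, of which 6 are also counted above, 3 were lower and 2 higher, again close to the shares over all genes, with a median of -0.17. The lower ones included *Abca6* and the peroxisomal *Abcd3*, and the higher ones were *Abcd4*, which acts in cobalamin transport, and *Abca8b*. Leave-one-out fits lost the call of *Abca6* in 4 of 7 and of *Abcd3*, *Abcd4* and *Abca8b* in 5 of 7 each, and limma on FPKM values called neither *Abcd4* nor *Abca8b*. Over all alternatives the log2 fold changes ranged from -2.01 to -1.2 for *Abca6* and -1.5 to -0.75 for *Abcd3*. They ranged from 0.53 to 0.94 for *Abcd4* and 0.5 to 0.79 for *Abca8b*.

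**Figure D5:**
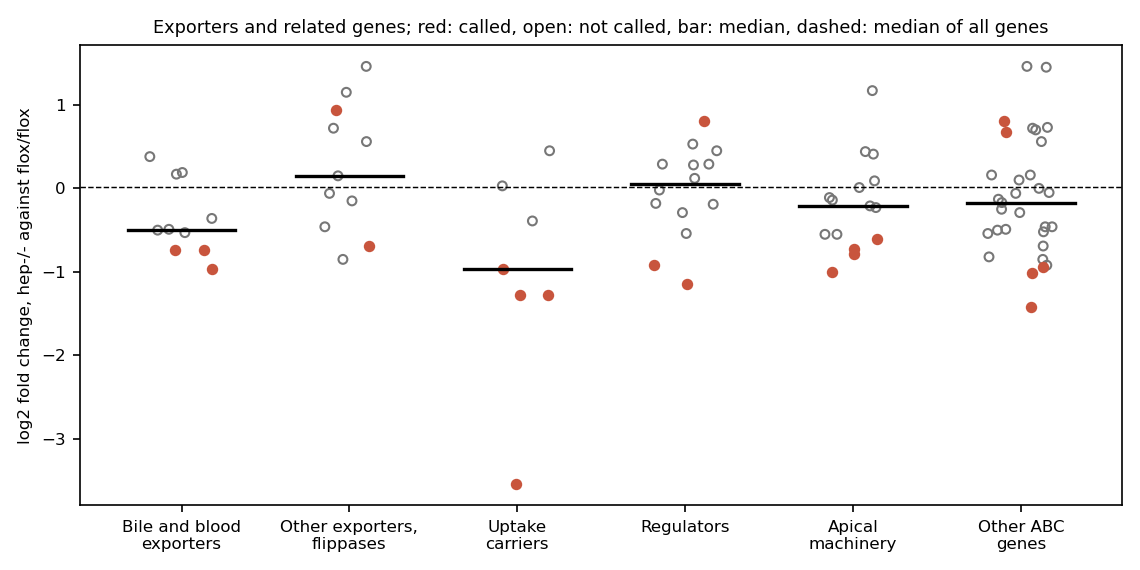
Log2 fold change, hep-/- minus flox/flox, of each tested gene in the exporter set and in the related lists, with 1 point per gene, filled red where called, a bar at the list median and a dashed line at the median of all genes tested. The median lies at -0.50 for the 10 exporters, -0.97 for the uptake carriers and 0.05 for the regulators.

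The nuclear receptors and other regulators known to act on exporter genes showed 2 lower and 1 higher of 14, with a median of 0.05. These counts lie near the shares over all genes tested, 7.83% lower and 8.0% higher. *Rxra* encodes RXR alpha, a partner of FXR, LXR, PXR and CAR. It averaged 326 ± 40.0 (SD, n = 4) and 147 ± 17.6 CPM (SD, n = 3). The call, with a log2 fold change of -1.15 (adjusted p = 0.00605), held when any mouse was left out. *Nr1i2*, encoding the xenobiotic receptor PXR, averaged 94.4 ± 2.85 (SD, n = 4) and 165 ± 22.1 CPM (SD, n = 3), a log2 fold change of 0.81 (adjusted p = 0.0132, but 0.0557 without flox/flox replicate 2 and 0.0627 with limma on unfiltered FPKM values). *Pparg* changed by -0.92 (adjusted p = 0.0311), a call lost in 4 of 7 leave-one-out fits (adjusted p up to 0.0997). Those were without flox/flox replicate 2 or 4 and without hep-/- replicate 2 or 3. The log2 fold change of *Pparg* stayed between -1.07 and -0.75 over all alternatives. *Nr1h4*, encoding the bile acid receptor FXR, differed by 0.29 (adjusted p = 0.397) and *Nfe2l2*, encoding the oxidant-response transcription factor NRF2, by -0.29 (adjusted p = 0.318). *Nr1i3*, encoding CAR, differed by 0.53 (adjusted p = 0.117). Neither *Nr0b2*, an FXR target, nor *Nr1h3*, encoding LXR alpha, was separated (adjusted p = 0.612 and 0.943).

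In the apical domain machinery, the proteins that sort, anchor or populate the canalicular membrane, 4 of 15 were lower, and the median was -0.21. Over all genes tested, 7.83% were called lower. *Ceacam1*, a canalicular adhesion glycoprotein, changed by -1.0 (adjusted p = 0.0328), *Pdzk1*, a scaffold that binds transporter tails, by -0.78 (adjusted p = 0.0452), *Myo5b*, the motor of apical recycling, by -0.73 (adjusted p = 0.0289), and *Anpep*, a canalicular peptidase, by -0.61 (adjusted p = 0.043). These calls were lost in 4, 5, 5 and 7 of the 7 leave-one-out fits, in which the log2 fold changes were -1.37 to -0.76 for *Ceacam1*, -0.99 to -0.55 for *Pdzk1*, -0.80 to -0.61 for *Myo5b* and -0.66 to -0.54 for *Anpep*.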

How the data were processed

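Liver RNA was sequenced from 7 CDAHFD-fed mice, 4 *B4galt1* flox/flox and 3 *B4galt1* hep-/-. The authors deposited raw counts per gene and FPKM values per gene. Per the labels, RNA was extracted with TRIzol, and the submitters' processing notes name fastp, HISAT2, HTSeq, DESeq2 and R 3.2.0 with GRCm39. Strand setting and annotation were not given in the sources used here. The deposited FPKM values were compared with the counts over 13374 genes, and 0 deviated by more than 1%.

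Genes passing filterByExpr (minimum count 10, minimum total 15) were tested on counts with edgeR 4.0.16 (R 4.3.3), with TMM normalisation and the quasi-likelihood F-test on group only. Genes were called at a Benjamini-Hochberg adjusted p below 0.05 with a log2 change beyond 0.58 in either direction. CPM values are TMM-normalised, SE was derived from the F statistic, and intervals use the fitted degrees of freedom. Alternatives used DESeq2 1.42.0, limma 3.58.1 on log2(FPKM + 1) or log2(FPKM + 0.1), voom with quality weights, other scalings and filters, a replicate block and each mouse left out. The pipeline was tested on simulated data. The 21 pairs of libraries were checked for copies, and none was found. Nothing in the labels ties a mouse of one group to a mouse of the other.

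Members and lists were chosen with earlier results of these data known. Genes named from the related lists are the called genes of lowest p, up to 4 per list, for the other ABC genes up to 3 called in each direction by size of change, and a fixed set of well-known transporters and regulators, apart from some that are counted but not reported here by name. Promoter sequences are from RefSeq on GRCm38.p6, a build other than that of the counts, and covered 8 of 10 members. *Abcc3* and *Abcc6* had no entry. Exon overlaps are from GENCODE M21. P-values measure the spread between mice.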

Additional observations from a re-analysis of the deposited data

Results flagged for a closer look

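In the flox/flox group, 4 values lay far from the other 3 mice, with a gap to the nearest mouse above Dixon's 95% critical share of the group's range. *Abcc2* was low in flox/flox replicate 4, at 236 CPM (gap 0.837 of the range), and *Abcg2* was low in flox/flox replicate 1, at 62.5 CPM (0.859). Among the related genes, *Nr1h3* stood apart in flox/flox replicate 2, at 76.1 CPM (0.857), and *Atp7b* in flox/flox replicate 3, at 19.7 CPM (0.863). In all 40 groups of 4 were tested, of which chance flags about 1 in 20.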

How the results depend on the processing

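No exporter changed direction under any of the alternatives run. The count of exporters called was 4 with each limma fit on FPKM, 1 with a replicate block and 0 to 3 when a mouse was left out. The filtered limma fits tested 9 members and the unfiltered fit 10. As given below, the calls over all genes also shifted toward lower on the FPKM scale. The limma count therefore cannot be set directly beside the main one. Same-numbered mice did not deviate together (correlations -0.46, -0.13 and 0.10), and no mouse correlated best with its own number. The highest correlation was 0.59, between flox/flox replicate 1 and hep-/- replicate 2. The numbers thus gave no ground for pairing, and a shared litter, cage or batch was not tested. With the block *Abcg8* (adjusted p = 0.0777) and *Abcc3* (0.0956) lost their calls and *Abcc2* (0.0368) did not. Of the related genes named, *Slc10a1*, *Nr1i2* (0.0846), *Pparg*, *Atp7b*, *Myo5b*, *Anpep*, *Pdzk1*, *Abcd3*, *Abcd4* and *Abca8b* also lost theirs with the block. In the related lists, 18 genes were called (14 lower, 4 higher), against 10 with limma on log2(FPKM + 1) without the filter, 10 with the block, 24 with DESeq2, 25 with limma on log2(FPKM + 0.1), and 5 to 18 when a mouse was left out. Over all genes, 2404 were called, 50.5% of them higher, against 1330 with limma without the filter, 1267 with the block, 3271 with DESeq2, and 885 to 2396 when a mouse was left out, lowest without flox/flox replicate 2. On the FPKM scale the median of all genes moved from 0.02 to between -0.05 and -0.18, and 18.2 to 24.5% of the calls were higher. Values that turned direction were those of *Nr0b2* (leave-one-out range -0.36 to 0.81, negative without hep-/- replicate 2) and of *Nr1h3* with upper-quartile scaling (0.01), with voom (0.08) and on leaving out a mouse (-0.11 to 0.06, positive without hep-/- replicate 2), and the cause was not tested. *Abcc4* had the lowest counts of the members, 110 to 329.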
